A study of Mus musculus with 12 samples.

Results

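Gene expression in adult mouse soleus was set against that in dividing C2C12 myoblasts, across all genes measured on the 3 soleus and the 3 myoblast arrays of a series of 12. The arrays were chosen by their labels alone. The soleus is a slow, oxidative hind limb muscle; it came from male CD1 mice 3 months old, and each sample pooled the muscles of both hind limbs of 1 mouse. C2C12 is a single mouse myoblast line, so its 3 samples carry 1 genotype. It was grown in 10% serum on gelatine-coated plates and collected at about 50% confluence, while the cells were dividing. The labels give no treatment for either group. The other 6 arrays, of C2C12 myotubes and of the fast extensor digitorum longus (EDL) muscle, entered only where stated. The labels do not say whether the myoblast cultures were grown separately, so p-values measure the spread between these samples, which may be technical.

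A muscle fibre is a large cell with many nuclei that has left the cell cycle for good. Its myoblast precursors divide, then withdraw from the cycle, fuse and build sarcomeres, the repeating units in which myosin filaments pull on actin filaments. Slow fibres, which carry the myosin Myh7, burn fat and sugar in their mitochondria, whereas a dividing myoblast makes DNA, ribosomes and membranes. A whole muscle also holds vessels, nerve, connective tissue, blood cells and resident stem cells, so a difference between the groups is one between a tissue and a cell line. In such bulk samples, fewer cells of a type and less RNA per cell cannot be told apart.

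Each level below is the log2 of an array's spot signal scaled by that array's 75th percentile, so that a difference of 1 is a 2-fold change. Genes with an absolute difference of at least 1 and an adjusted p under 0.05 were called higher or lower (limma, Benjamini-Hochberg over 18263 genes, slide as a block). Between 57.5% and 69.1% of probes were well above background on the soleus arrays and between 63.1% and 70.8% on the myoblast arrays. The 75th percentile of the unscaled signal was 457 to 614 on the soleus arrays and 1048 to 1556 on the myoblast arrays, while the spike-in controls lay at log2 values of 10.9 to 11.3 on the soleus arrays and 10.9 on the myoblast arrays. The 100 brightest probes took 25.4% to 27.2% of the signal on the soleus arrays and 16.3% to 18.1% on the myoblast arrays. Scaling therefore matters here: scaled on the spike-ins instead, the median of all genes moved by -1.44 and every gene by between -1.49 and -1.35. Counts of higher genes thus fell or stayed, and counts of lower genes grew or stayed. Of the 100 counts of list members called higher or lower, 36 changed by over 1.5 times with that scaling. With another background correction, normexp, 43 did, and it called 1180 genes higher and 1409 lower. The spike-in counts are given beside the main ones below or, for some lists, in the section on processing. Each slide held 1 array of each group, with each group always at the same position, so that position on the slide cannot be told apart from group. Slides 2 and 3 were scanned on 1 day and slide 1 on another. Across probes, r was 0.976 to 0.987 between soleus arrays, 0.985 to 0.993 between myoblast arrays and 0.836 to 0.850 between the groups; probes are not independent replicates.

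The difference between the muscle and the cell line covered a large share of the genes. Of 18263 genes, 5562 were higher in soleus (30.5%) and 4681 were lower (25.6%), together 56.1%. The median difference over all genes was 0.12, and the 3 soleus values did not overlap the 3 myoblast values for 80.1% of genes. Of the called genes, 10218 had a value on both arrays of all 3 slides. All 10218 kept their direction within every slide, which the calling rule, applied to the same slides, nearly requires. The upper tail was the longer one: 1644 genes were higher by at least 4 on the log2 scale and 604 were lower by as much. Some called genes with a RefSeq symbol were seen on one side only. Of these, 594 were well above background on all 3 soleus arrays and, with any probe, on no myoblast array, and 369 the other way round. With spike-in scaling 2854 genes were higher and 10396 lower, so the balance between the directions rests on the scaling.

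**Figure D1:**
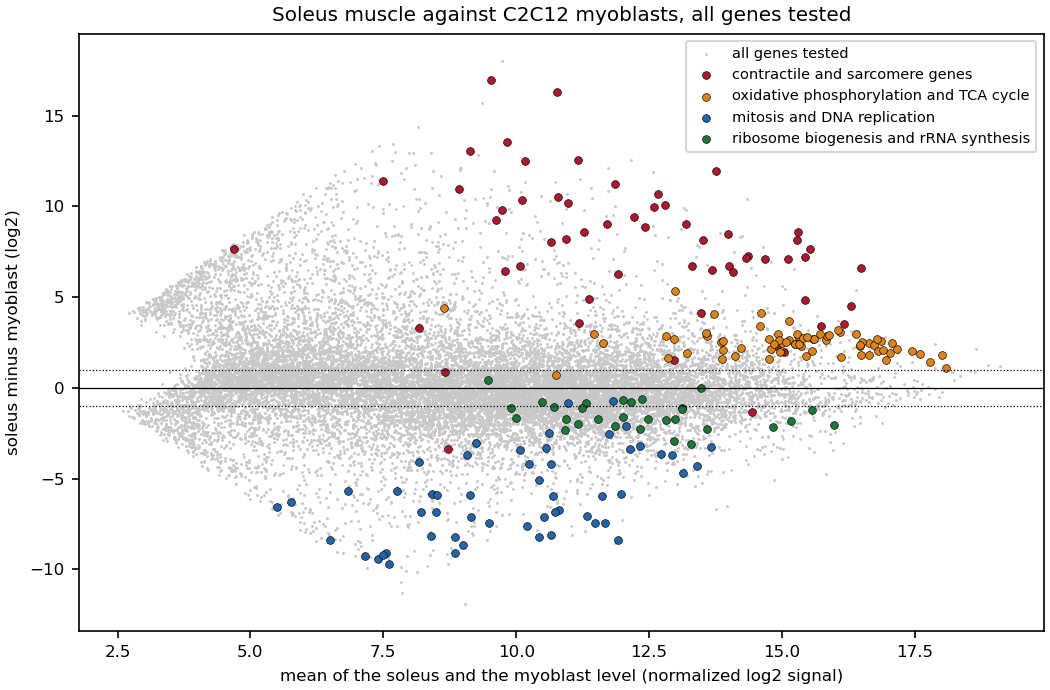
Difference between soleus and myoblast (log2, soleus minus myoblast) of each of the 18263 genes against its mean level over the 6 arrays, with 4 gene groups in colour and dotted lines at a difference of 1 in either direction. Contractile and sarcomere genes reach differences above 10, genes of oxidative phosphorylation and the TCA cycle stay between 0.73 and 5.36, mitosis genes lie between -9.71 and -3.02, and the arms at low mean level are genes dim in one of the groups.

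The slow contractile genes set the muscle far apart from the cell line. Set against myoblasts they check its label as muscle but not as soleus, since Myh7 averaged 16.28 in EDL. All 6 slow fibre identity genes were higher in soleus and all 6 myoblast identity genes were lower. Myh7, the slow myosin heavy chain (probe at chr14:53924903-53924962 of mouse build mm8, minus strand), had levels of 19.63, 19.55 and 19.63 on the soleus arrays, against 10.96, 11.00 and 11.07 on the myoblast arrays. The groups lay far apart next to the spread within each. The difference was 8.59 ± 0.07 (SE), or 385-fold, with an adjusted p of 1.46e-05. Tnni1, the slow inhibitory subunit of troponin, which holds the filament off until calcium arrives, stood at 17.25, 17.33 and 17.48 in soleus, against 10.58, 10.66 and 10.73 in myoblasts. That is 104-fold. Myl2, the slow regulatory light chain, was read at 19.02, 18.92 and 18.82 in soleus and at 1.84, 2.32 and 3.71 in myoblasts, where only 1 array was above background. Of the 14 slow fibre genes measured, 12 were higher in soleus and 1 was lower, with a median difference of 7.46 (7.26 with dim genes at their lower bound) against 0.12 over all genes. Myl6b, a slow light chain also found outside muscle, was not called at 0.87 and turned to -0.57 with spike-in scaling. The exception was Tpm3, which encodes both slow muscle and non-muscle tropomyosins: it stood at 13.65, 13.84 and 13.79 in soleus, against 15.02, 15.14 and 15.16 in myoblasts, a difference of -1.35, and only 1 of its 2 probes had that sign: the mean over both probes gave 2.86. Myh6 had a difference of 12.55, but it is near-identical to Myh7 and its probe may read both, so its value is uncertain.

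Genes of fast fibres were as far above the myoblast as those of slow fibres, although the soleus is a slow muscle. All 15 fast fibre genes were higher in soleus, with a median of 7.66. Myh4, the fastest adult myosin heavy chain, had 17.76, 17.86 and 17.88 in soleus, against 7.80, 7.81 and 7.70 in myoblasts. The fast myosins Myh1, Myh2 and Myh4 are close in sequence to each other and to Myh8. Each probe may read the others in part, so the level of each of these genes is uncertain. Mybpc2, the fast myosin-binding protein C, differed by 13.08, with 1 of 3 myoblast arrays above background. Pvalb, the calcium buffer parvalbumin, was read at 13.05, 13.27 and 13.25 in soleus and was not well above background in myoblasts (2.46, 1.69 and 1.25). It was at least 1179-fold higher, with an adjusted p of 4.01e-05. The smallest of these differences was that of Actn3, the fast alpha-actinin, at 1.55: its soleus levels were 13.52, 13.83 and 13.86, against 12.05, 12.22 and 12.30 in myoblasts. Scaled on the spike-ins, it was 0.11 and no longer called.

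The comparison with EDL shows how far these levels follow the type of muscle. In a fit of all 12 arrays, 5.44% of all genes were higher and 4.63% lower in soleus than in EDL. Of the 14 slow fibre genes, 11 were higher and none was lower (3 were not called), and of the 15 fast fibre genes, 1 was higher and 9 were lower. This comparison shares its soleus arrays with the one against myoblasts. Tnni1 averaged 17.36 ± 0.11 in soleus and 11.59 ± 0.03 in EDL (SD, n = 3 each), a difference of 5.76, and 10.66 ± 0.08 in myoblasts. The mean of this slow gene in the fast muscle thus lay closer to the cell line than to soleus. Tnnc1, the slow and cardiac troponin C, showed the same order, with 16.93 ± 0.09 in soleus, 10.76 ± 0.14 in EDL and 10.43 ± 0.20 in myoblasts (SD, n = 3 each). Actn3 averaged 13.74 ± 0.19 in soleus, against 18.49 ± 0.16 in EDL (SD, n = 3 each), a difference of -4.75. Myh2, the myosin of fast oxidative fibres, was the fast gene that was higher in soleus, by 1.26. Tnni2 and Tnnc2, fast troponin subunits, were not called between the muscles, with differences of -0.16 and -0.04.

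**Figure D2:**
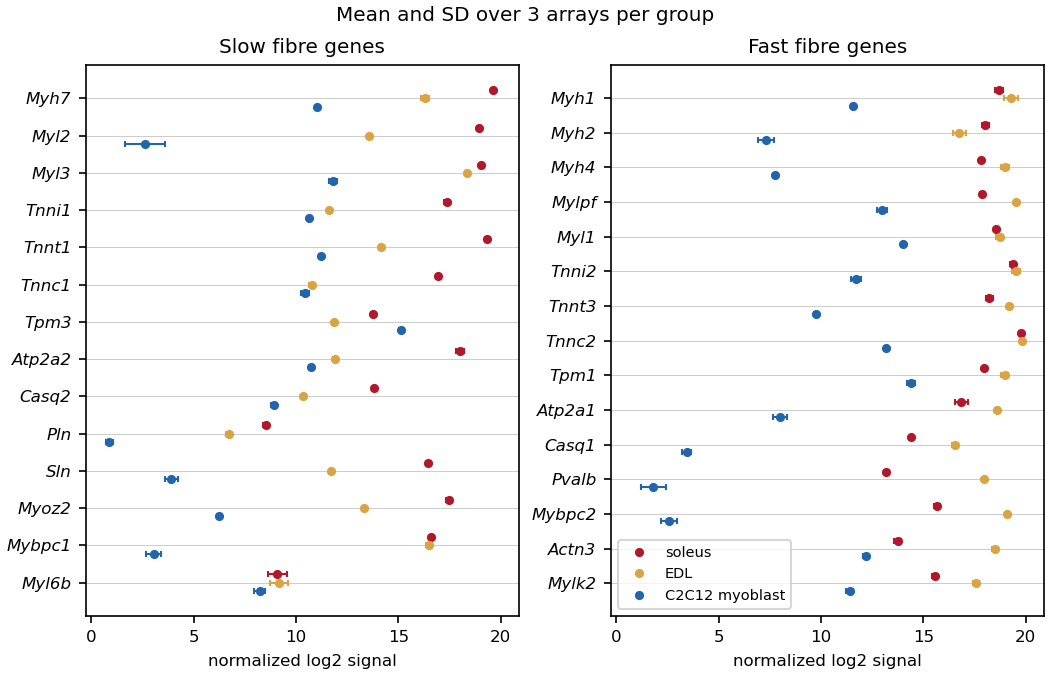
Levels (log2 scaled signal, mean and SD, n = 3 per group) of the 14 slow and 15 fast fibre genes in soleus, EDL and myoblasts. All fast genes and all slow genes but Tpm3 have a soleus mean above the myoblast mean, while Tnni1 and Tnnc1 average 11.59 and 10.76 in EDL and 10.66 and 10.43 in myoblasts.

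The scaffold that holds the filaments in register was almost uniformly higher in soleus. Of 29 Z-disc, M-band and filament scaffold genes, 28 were higher and 1 was lower, with a median of 8.17. Myot, a Z-disc protein that binds filamin, read 18.07, 17.98 and 17.97 in soleus, against 1.29, 1.09 and 0.79 in myoblasts, where no array was above background. It was at least 33250-fold higher. Actn2, the alpha-actinin that crosslinks actin at the Z-disc, differed by 12.54 ± 0.14 (SE), and Tcap, which caps titin there, by 11.97 ± 0.12. Ttn, the giant spring titin, differed by 7.15, with the same sign in all 9 of its probes. The gene that went the other way was Mybph, myosin-binding protein H, at 6.90, 6.97 and 7.20 in soleus, against 10.27, 10.51 and 10.46 in myoblasts, a difference of -3.39.

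A pair of promoters from this group is shown because each holds, within 250 bases before the start site, the E-box spelling CAGCTG, to which MyoD and its relatives can bind, and a match to the MEF2 motif, bound by the factors of that name. Myoz2 encodes a Z-disc protein that binds calcineurin, the calcium-activated phosphatase, and was 11.23 higher in soleus; Klhl41 encodes a Kelch protein needed for ordered sarcomeres and was 6.72 higher. The sequences are from RefSeq, build GRCm38.p6, on the strand of the gene, with both motifs in capitals.
Myoz2 (chr3:123034988-123035237, minus strand): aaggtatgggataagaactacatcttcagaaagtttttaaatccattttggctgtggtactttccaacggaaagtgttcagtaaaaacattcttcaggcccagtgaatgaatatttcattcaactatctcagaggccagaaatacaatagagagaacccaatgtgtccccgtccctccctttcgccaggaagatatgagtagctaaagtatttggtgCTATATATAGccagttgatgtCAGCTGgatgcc
Klhl41 (chr2:69669870-69670119, plus strand): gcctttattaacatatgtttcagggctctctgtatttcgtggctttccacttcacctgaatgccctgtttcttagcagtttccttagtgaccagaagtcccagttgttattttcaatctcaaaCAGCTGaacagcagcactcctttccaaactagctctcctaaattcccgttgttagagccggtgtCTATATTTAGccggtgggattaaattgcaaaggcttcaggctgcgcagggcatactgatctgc
On either strand, CAGCTG stood in 36.4% of the promoters of 44 contractile and sarcomere genes and in 12.1% of all 11700 promoters of tested genes. The MEF2 motif stood in 22.7% and 1.83%. In Myoz2 the matches begin 33 (MEF2) and 12 (CAGCTG) bases before the start site, and in Klhl41 they begin 63 and 127 bases before it. A match describes these letters and is not a bound site.

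Most genes of the machinery that turns a nerve impulse into calcium release were higher in soleus. Of 17 excitation-contraction coupling genes, 14 were higher, 2 were not called and 1, Fkbp1a, which binds the release channel, was lower (median 3.97; 12 and 3 with spike-in scaling). Cacna1s, the voltage sensor of the T-tubule, had 17.21, 17.40 and 17.38 in soleus, against 9.37, 9.54 and 9.44 in myoblasts, a difference of 7.88. Ryr1, the calcium release channel it opens, differed by 8.44, though 1 of its 3 probes had the other sign. Trdn, triadin, which anchors calsequestrin beside that channel, differed by 10.88. Among 12 channels and pumps of the fibre membrane, 11 were higher and none was lower (10 and 1 with spike-in scaling): Fxyd1, phospholemman, a regulator of the sodium pump, was at least 2759-fold higher. Dmd, dystrophin, which ties the cytoskeleton to the membrane, was read at 11.25, 11.04 and 11.33 in soleus and was not above background in myoblasts (1.14, 0.97 and 0.77), at least 299-fold higher. Of the 17 dystrophin complex and sarcolemma genes, 14 were higher (10 with spike-in scaling); Itga7, a laminin receptor of myoblasts and fibres, was the one that was lower, at -1.72.

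At the neuromuscular junction the subunits of the acetylcholine receptor changed in opposite directions under the main processing. Of 11 junction genes 2 were higher and 3 were lower (1 and 5 with spike-in scaling). Their median of 0.72 became -0.72 with spike-in scaling. Normexp called 0 of the 11 higher and 0 lower, so that Chrne, Chrnb1, Chrnd and Ache all lost their calls. Chrng, the fetal gamma subunit, stood at 8.64, 8.74 and 8.91 in soleus, against 11.34, 11.54 and 11.50 in myoblasts, a difference of -2.70. Chrne, the adult epsilon subunit that replaces it after birth, stood at 10.71, 11.07 and 10.80 in soleus, against 9.21, 8.84 and 8.36 in myoblasts, a difference of 2.05 that was 0.62, and no longer called, once scaled on the spike-ins. The groups did not overlap for either subunit, nor for 80.1% of all genes. The subunits common to both receptors, Chrna1, Chrnb1 and Chrnd, were lower, with differences of -1.84, -1.51 and -2.55. Ache, the esterase that ends the signal, was 4.40 higher, with 2 of 3 myoblast arrays above background.

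The regulators of the myogenic programme changed in both directions. Myod1, which commits cells to muscle, was at 8.44, 8.21 and 8.28 in soleus, against 12.24, 12.09 and 11.96 in myoblasts; it was 13.8-fold lower, with an adjusted p of 2.8e-05. Myf5, its early partner, differed by -3.10 and Myog, the factor of differentiation, by -1.10. Myf6, the member that stays on in adult fibres, was at 13.04, 13.24 and 13.36 in soleus, against 5.20, 5.26 and 5.82 in myoblasts, 222-fold higher. The groups did not overlap for any of these 4, nor for 80.1% of all genes. Mef2c, a partner of these factors, was 7.70 higher. Over the 19 myogenic and satellite cell genes, 7 were higher and 8 lower (4 and 9 with spike-in scaling); the median of 0.80 was -0.63 with that scaling. Calcr, a receptor of quiescent satellite cells, was at least 20.9-fold higher, but with normexp its difference was 1.14 and not called. Pax7, the factor of muscle stem cells, was at 6.63, 7.74 and 8.33 in soleus, against 6.09, 6.29 and 6.51 in myoblasts, a difference of 1.27 that was -0.17 with spike-in scaling. Its call was lost without replicate 2 (1.18) and without replicate 3 (0.99). Megf10, a receptor of proliferating satellite cells, was lower, at -4.65. Among 13 regulators of fibre type, 10 were higher and 1 lower (7 and 3 with spike-in scaling): Esrrb, a nuclear receptor of oxidative fibres, was at least 353-fold higher, and Sox6, a repressor of slow genes, was 9.71 higher with 1 of 3 myoblast arrays above background. The lower one was Ankrd1, a stretch-responsive cofactor, at 11.09, 10.90 and 11.03 in soleus, against 15.88, 15.93 and 15.70 in myoblasts, 28.5-fold lower.

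Embryonic and neonatal muscle genes were mixed. Of 12, 2 were higher and 6 were lower, with a median of -1.09 (1 and 9 with spike-in scaling). Myh3, the embryonic myosin, had 12.27, 11.91 and 12.24 in soleus and 12.09, 11.90 and 11.87 in myoblasts; the groups overlapped, and the difference of 0.19 was not called (adjusted p 0.155). Myh8, the perinatal myosin, was 8.12 higher and had soleus levels of 19.59, 19.38 and 19.21, but it is close in sequence to the adult fast myosins, which its probe may read in part. Cdh15, M-cadherin, which holds myoblasts together before fusion, was 8.86-fold lower.

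**Figure D3:**
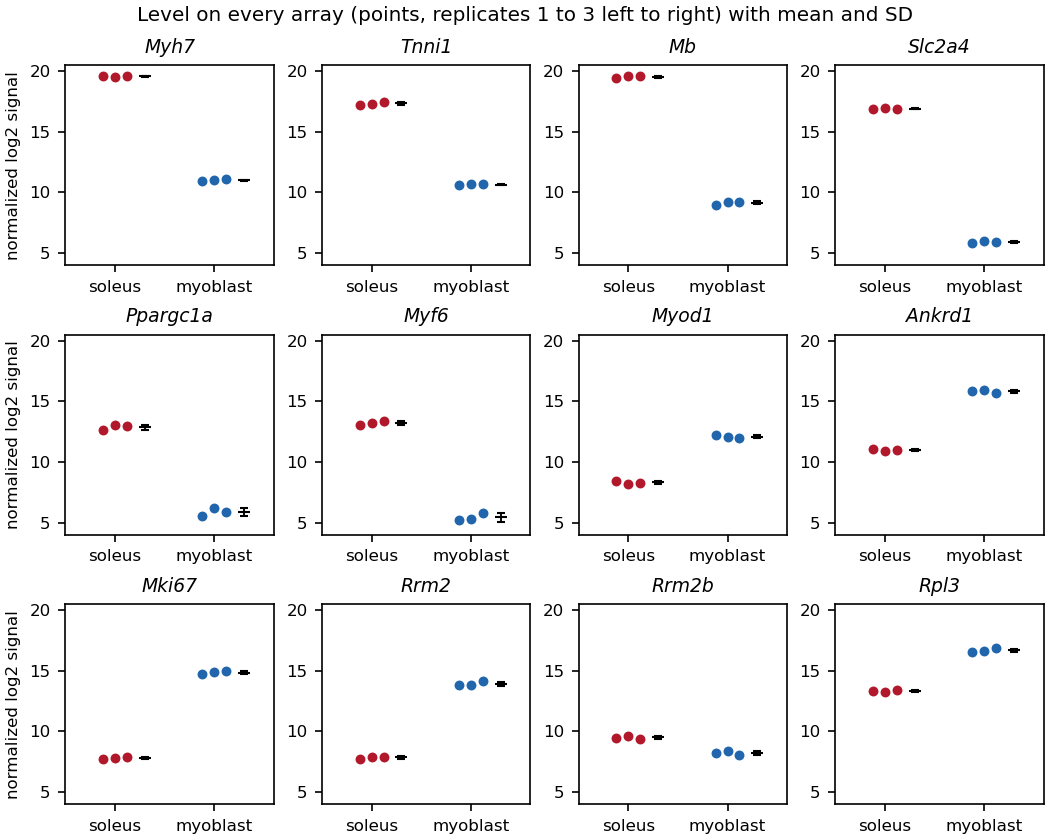
Levels (log2 scaled signal) of 12 genes on each of the 3 soleus and 3 myoblast arrays, with mean and SD. The groups do not overlap in any of the 12 panels, nor for 80.1% of all genes. The direction differs between Myf6 and Myod1 and between Rrm2b and Rrm2.

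Genes that store energy and carry oxygen had the largest median difference of the 50 gene lists described here. All 14 were higher in soleus, with a median of 9.26. Mb, myoglobin, the oxygen store that makes slow muscle red, had 19.44, 19.59 and 19.60 in soleus, against 8.99, 9.22 and 9.24 in myoblasts, a difference of 10.39, or 1345-fold. Ckmt2, the mitochondrial creatine kinase of muscle, stood at 18.64, 18.90 and 18.72 in soleus and was not above background in myoblasts (0.96, 0.74 and 0.49). It was at least 55689-fold higher, the largest bound among called genes with a RefSeq symbol. Cox8b and Cox6a2, muscle and heart subunits of cytochrome c oxidase, differed by 12.12 and 11.93.

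The shared machinery of the mitochondrion moved by less and more evenly. All 46 nuclear-encoded oxidative phosphorylation genes were higher, none overlapped, and they kept within a narrow range, from 1.12 for Atp5b, a catalytic subunit of ATP synthase, to 3.08 for Ndufa5, a subunit of complex I, with a median of 2.48. With spike-in scaling the median was 1.04 and 26 of the 46 were called; quantile normalization left 43 called, with Atp5b at 0.02. Of 26 genes of the TCA cycle and pyruvate entry, 25 were higher (median 2.63; 15 with spike-in scaling): Pdk4, the kinase that shuts off pyruvate dehydrogenase in favour of fat, was 5.36 higher, and Cs, citrate synthase, was 1.53 higher but at 0.10 with spike-in scaling. Suclg2, the GTP-forming succinate ligase, was not called at 0.73. The 34 mitochondrial ribosomal proteins did not follow: 7 were higher and 27 not called, with a median of 0.57, and with spike-in scaling 1 was higher and 13 were lower, with a median of -0.87.

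Fat oxidation genes were higher in 28 of 29 cases, with a median of 3.76. Cd36, which brings fatty acids across the membrane, was at 14.27, 14.53 and 14.54 in soleus, against 3.83, 3.96 and 4.25 in myoblasts, 1379-fold higher. Cpt1b, which passes them into the mitochondrion, was 8.47 higher, and Plin5, which coats the lipid droplets of oxidative fibres, was 9.07 higher. Among 24 glycolysis and glycogen genes, 19 were higher and none lower (median 3.62), but with spike-in scaling 15 were higher and 3 lower, among them Ldha at -1.21. The 5 that were not called under the main scaling were Tpi1, Gapdh, Pgk1, Pkm and Ldha, enzymes of the lower glycolytic path and lactate formation. The largest changes were in glycogen handling and glucose entry: Ppp1r3c, a subunit that directs phosphatase to glycogen, was at least 1836-fold higher, and Slc2a4, the insulin-responsive transporter GLUT4, was 11.04 higher, at 16.90, 16.95 and 16.93 in soleus, against 5.79, 5.96 and 5.91 in myoblasts.

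Of 12 regulators of mitochondrial biogenesis 7 were higher and 1 was lower, with a median of 1.27, and with spike-in scaling 4 were higher and 4 lower, with a median of -0.17. Ppargc1a, the coactivator PGC-1alpha, was at 12.62, 13.04 and 12.94 in soleus, against 5.58, 6.23 and 5.90 in myoblasts, 125-fold higher with an adjusted p of 1.62e-05. Perm1, a muscle partner of that coactivator, was 12.11 higher with 1 of 3 myoblast arrays above background. Ppara, the receptor that drives fat oxidation genes, was at least 390-fold higher. The basal factors differed among themselves. Tfb2m, a mitochondrial transcription factor, and Twnk, the mitochondrial DNA helicase, were higher by 1.21 and 1.32, though at -0.23 and -0.12 with spike-in scaling. Nrf1, an activator of respiratory genes, was lower at -1.04, a call that was lost without replicate 1 (-0.92) and without replicate 2 (-0.98). Tfam, which packs and transcribes mitochondrial DNA, was not called at 0.50 (adjusted p 0.061).

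Many of these genes have a sister, and 29 pairs were compared. Most set a muscle form, named first, against one expressed outside muscle. In 22 pairs the first gene was higher and its sister lower in soleus. The first gene was higher in 28 of the 29, and the sister was lower in 23 and higher in 3. Phosphoglycerate mutase gave 8.74 for Pgam2 and -3.95 for Pgam1. The glucose transporters gave 11.04 for Slc2a4 and -2.76 for Slc2a1, and the carnitine palmitoyltransferases 8.47 for Cpt1b and -1.69 for Cpt1a. Translation had 2 such pairs. Rpl3l, the muscle form of ribosomal protein L3, was at 15.63, 15.70 and 15.73 in soleus, against 2.31, 2.93 and 3.36 in myoblasts, where 1 array was above background. Rpl3 itself was at 13.36, 13.25 and 13.42 in soleus, against 16.56, 16.64 and 16.86 in myoblasts, 10.2-fold lower. Eef1a2, the muscle and neuron form of elongation factor 1 alpha, was at least 2967-fold higher, and Eef1a1 was lower at -1.64. The pairs that broke the pattern included cytochrome oxidase 7a, caveolin and troponin C, in which both genes were higher. Another was thymidine kinase, in which the first gene Tk2 was not called. The rest were those of Cox8a, Ldha and Tmod3, sisters that were not called at -0.69, 0.22 and 0.14. Troponin C is a slow and fast pair within muscle rather than a muscle and non-muscle one. Nor is lactate dehydrogenase such a pair, since Ldha is the muscle subunit and Ldhb the heart subunit. The first genes Rrm2b and Tk2 are not muscle forms but the counterparts of the S phase forms Rrm2 and Tk1. With spike-in scaling the first genes Rrm2b and Dtna and the caveolin Cav1 turned to -0.16, -0.28 and -0.03. Actb depended on its probe, with 1 of 2 probes at the sign of its difference of -1.38.

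**Figure D4:**
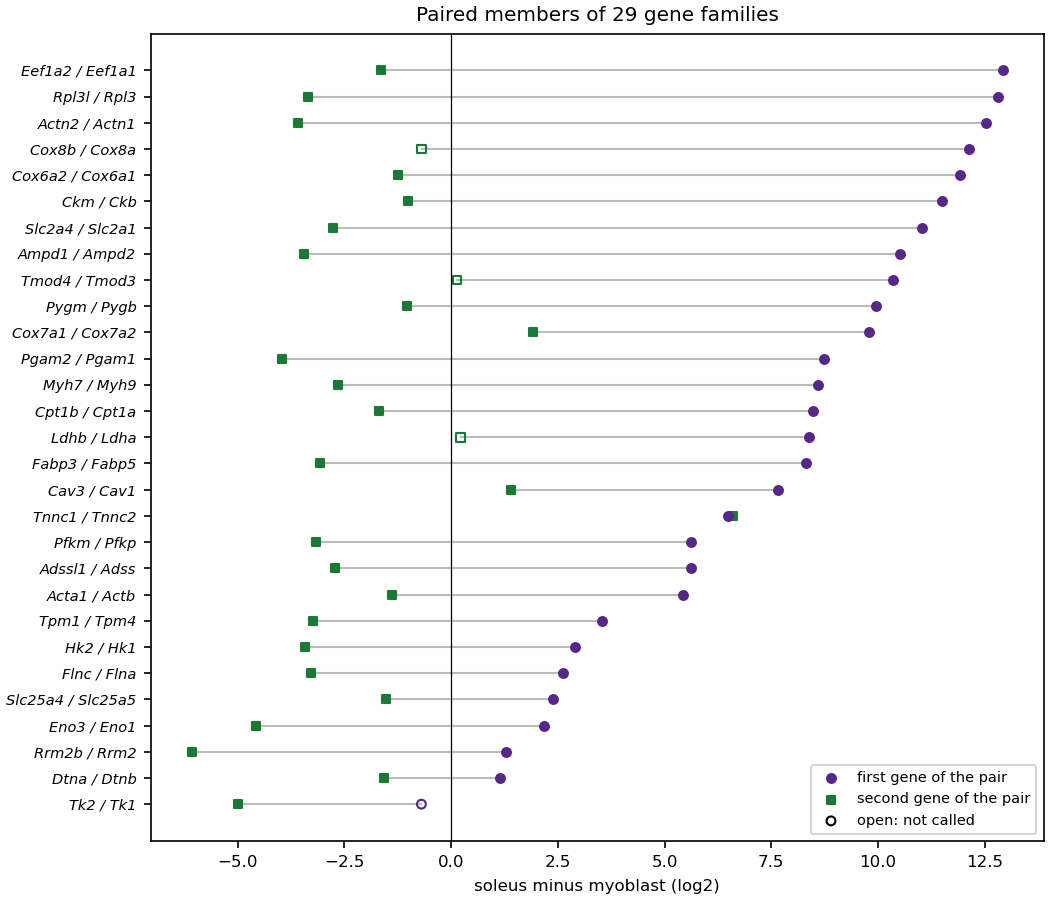
Difference (log2, soleus minus myoblast) of both genes of 29 pairs, joined by a line, with open symbols where the gene was not called. In 28 pairs the first gene lies to the right of the second. Troponin C, with 6.50 for Tnnc1 and 6.59 for Tnnc2, is the other one.

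The cell cycle was the clearest mark of the myoblast. All 28 mitosis and G2 genes were lower in soleus, with a median of -7.52 (-7.45 with dim genes at their bound), and 7 of them were above background on no soleus array with any probe. Mki67, which coats mitotic chromosomes and marks cycling cells, was at 7.72, 7.83 and 7.85 in soleus, against 14.71, 14.90 and 14.96 in myoblasts, 133-fold lower. Top2a, which untangles sister chromatids, was not above background in soleus (2.72, 2.90 and 2.99), against 12.40, 12.04 and 11.85 in myoblasts, and was at least 232-fold lower. Bub1, a spindle checkpoint kinase, was at least 298-fold lower and Aurkb, the kinase that corrects chromosome attachment, at least 235-fold. Cdk1, the mitotic kinase, was at 4.71, 4.47 and 3.72 in soleus, with 1 array above background, against 13.29, 13.51 and 13.33 in myoblasts. The smallest difference of the list, -3.02, was that of the kinetochore gene Ndc80, at 6.31, 8.89 and 8.01 in soleus, against 10.90, 10.73 and 10.63 in myoblasts. The soleus arrays spread widely, but they did not overlap with the myoblast arrays.

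DNA replication followed, with 24 of 26 genes lower, none higher and a median of -3.88. Mcm5, a subunit of the helicase that opens the replication fork, was at 7.22, 7.41 and 7.34 in soleus, against 13.87, 14.28 and 14.26 in myoblasts, 112-fold lower. Mcm10, which switches that helicase on, was 137-fold lower, and Cdt1, which loads it, 62.1-fold. Of 21 G1 and S phase regulators, 17 were lower and 2 higher (median -3.76). Foxm1, the activator of mitotic genes, differed by -7.25 and E2f1, the activator of S phase genes, by -5.56. E2f7, a repressor of the same family, was at 5.90, 9.07 and 5.69 in soleus, against 12.18, 12.46 and 12.51 in myoblasts, so that soleus replicate 2 stood far above the other soleus arrays. The exceptions were Rbl2, the pocket protein p130 that shuts E2F genes in resting cells, at 2.58, and Mycn, a growth-promoting factor, at 3.83 with 1 of 3 myoblast arrays above background. The inhibitors of the cycle differed among themselves, with 3 of 12 higher and 5 lower (3 and 8 with spike-in scaling). Cdkn2b, p15, was at least 76.6-fold higher, but with normexp its difference was 2.00 and not called. Cdkn1c, p57, was 4.28 higher. Cdkn1a, p21, was instead at 9.84, 10.04 and 10.13 in soleus, against 12.39, 12.50 and 12.79 in myoblasts, a difference of -2.55.

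Promoters of these lower genes are shown for the letters they share. Genes of mitosis often carry CCAAT boxes, bound by NF-Y, and the element TTTGAA, called CHR, which recruits the DREAM and MuvB complexes; genes of replication often carry an E2F site, here any of TTTCCCGC, TTTGGCGC, TTTCGCGC and TTTGCCGC. The 250 bases before the start site are from RefSeq, build GRCm38.p6, on the strand of the gene. Only some motifs are in capitals (CCAAT and TTTGAA in Top2a and Cdk1, CCAAT and E2F in Mcm5). Cdk1 also holds the E2F spelling TTTCGCGC, left here in lower case. A motif on the other strand reads as its complement, ATTGG or TTCAAA.
Top2a (chr11:99024190-99024439, minus strand): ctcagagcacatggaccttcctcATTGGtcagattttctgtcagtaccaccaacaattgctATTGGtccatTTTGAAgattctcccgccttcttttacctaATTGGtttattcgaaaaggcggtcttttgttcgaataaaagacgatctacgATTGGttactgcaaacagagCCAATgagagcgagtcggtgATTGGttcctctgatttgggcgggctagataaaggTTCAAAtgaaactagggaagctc
Cdk1 (chr10:69352913-69353162, minus strand): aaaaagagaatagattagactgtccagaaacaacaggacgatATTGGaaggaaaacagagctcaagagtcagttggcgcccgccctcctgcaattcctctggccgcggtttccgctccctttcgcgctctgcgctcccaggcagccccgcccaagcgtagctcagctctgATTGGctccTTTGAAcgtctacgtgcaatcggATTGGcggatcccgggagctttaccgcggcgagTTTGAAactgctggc
Mcm5 (chr8:75109259-75109508, plus strand): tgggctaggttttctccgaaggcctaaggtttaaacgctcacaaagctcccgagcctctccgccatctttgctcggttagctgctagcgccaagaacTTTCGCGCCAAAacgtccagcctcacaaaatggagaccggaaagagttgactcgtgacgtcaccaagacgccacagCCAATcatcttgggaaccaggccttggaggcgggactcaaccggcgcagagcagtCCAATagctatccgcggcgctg
CCAAT stood on either strand of 75% of the promoters of 24 mitosis genes and of 66.7% of those of 21 replication genes, against 36% of all 11700 promoters, 25% for contractile and sarcomere genes. TTTGAA stood in 33.3% of mitosis and 14.3% of replication promoters, against 11.2% of all. An E2F spelling stood in 33.3% of replication and 4.17% of mitosis promoters, against 3.08% of all. Top2a holds 6 CCAAT boxes in this window. Its TTTGAA nearest the start site begins 23 bases before it, and that of Cdk1 begins 15 bases before it. In Mcm5 both E2F matches, which overlap on opposite strands, begin 153 and 149 bases before the start site.

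The study's stated interest was in the enzymes that supply DNA precursors to the mitochondrion. Of the 14 core deoxynucleotide (dNTP) enzymes, 9 were lower in soleus, 1 was higher and 4 were not called, with a median of -2.77; with spike-in scaling 11 were lower and none was higher. The S phase forms were lower: Rrm2, the cell-cycle small subunit of ribonucleotide reductase, was at 7.74, 7.92 and 7.92 in soleus, against 13.82, 13.85 and 14.15 in myoblasts, a difference of -6.08 ± 0.09 (SE), or 67.6-fold. Rrm1, the large subunit, differed by -3.09, and Tyms, thymidylate synthase, by -5.62, with 2 of its 3 probes at that sign. The cytosolic salvage kinases Tk1 and Dck differed by -4.99 and -3.86. Dctd, which turns dCMP into dUMP, was not above background in soleus and was at least 30.2-fold lower. With normexp the difference of Dctd was -1.58 and not called. Dut, which keeps uracil out of DNA, differed by -3.36. The one that was higher was Rrm2b, the small subunit used outside S phase: it was at 9.45, 9.66 and 9.42 in soleus, against 8.26, 8.36 and 8.06 in myoblasts, 2.43-fold higher with an adjusted p of 0.000279. All 3 soleus values were the higher ones, but with spike-in scaling the difference was -0.16. The mitochondrial salvage kinases Tk2 and Dguok were not called, at -0.69 and 0.99; with spike-in scaling Tk2 was called lower at -2.13 and Dguok stood at -0.45. Of the enzymes that break deoxynucleotides down, Samhd1 differed by -1.32 with 1 of 2 probes at that sign, and Nt5c by -2.46, while the mitochondrial nucleotidase Nt5m, at 0.55, and Tymp, thymidine phosphorylase, at -0.53, were not called, and Tymp was called lower at -1.97 with spike-in scaling.

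Many genes of ribosome assembly and of amino acid, nucleotide and sterol synthesis were lower in soleus as well. Of 30 genes of ribosome biogenesis, 23 were lower and none was higher (median -1.66): Nop58, a core protein of the snoRNA particles that modify ribosomal RNA, was 8.42-fold lower and Npm1, nucleophosmin, 4.11-fold. Of 40 cytosolic ribosomal proteins, 11 were lower and 29 not called (median -0.50). That share is near the 25.6% of all genes called lower. With spike-in scaling 38 were lower, with quantile normalization 33 and with normexp 3. Rpl3, with -3.35, had the lowest value of that list, followed by Rpl14 at -2.16. Of 24 genes of tRNA charging and amino acid synthesis, 16 were lower (median -1.38). Asns, asparagine synthetase, was at 9.09, 9.19 and 9.20 in soleus, against 15.12, 15.20 and 15.10 in myoblasts, 63.1-fold lower. Phgdh and Psat1, the first enzymes of serine synthesis, differed by -5.38 and -5.29. Of 18 genes of purine and pyrimidine synthesis, 11 were lower, among them Cad, which starts pyrimidine synthesis, at -3.50. Adsl, adenylosuccinate lyase, was the one that was higher, at 1.04, or -0.40 with spike-in scaling. Of 18 cholesterol synthesis genes, 14 were lower and none higher (median -2.995), led by Sqle, squalene epoxidase, at 7.67, 7.51 and 7.72 in soleus, against 13.67, 13.56 and 13.68 in myoblasts.

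The cytoskeleton of moving cells was lower as well. Of 34 non-muscle actin and adhesion genes, 27 were lower and 1 was higher, with a median of -2.82. Tmsb10, a thymosin that binds actin monomers, was 39.2-fold lower and Ezr, ezrin, which links actin to the membrane, 33.1-fold. The higher one was Flnc, the muscle filamin, at 2.63. Of 25 collagen and matrix genes, 6 were higher and 11 lower (4 and 17 with spike-in scaling). Dcn, decorin, which binds collagen fibrils, was at 15.62, 15.74 and 15.77 in soleus, against 10.03, 10.45 and 10.51 in myoblasts. Timp1, a protease inhibitor, was lower at -5.21, and Lox, which crosslinks collagen, at -4.99.

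**Figure D5:**
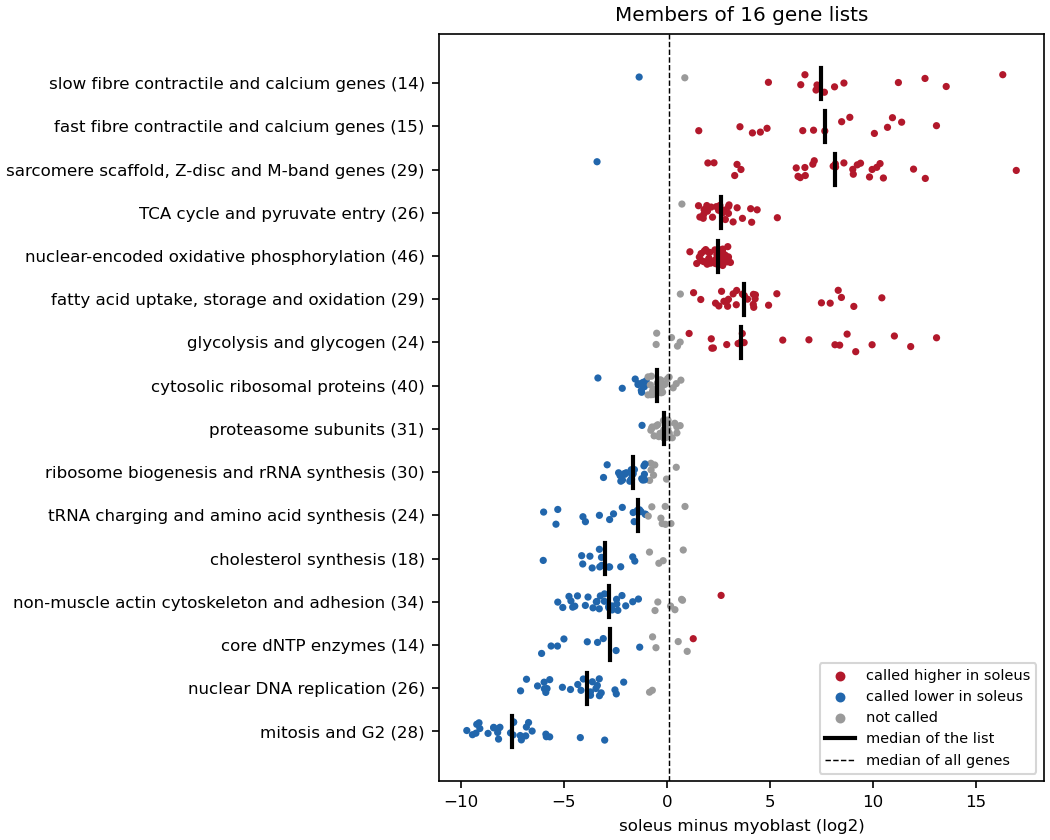
Differences (log2, soleus minus myoblast) of the members of 16 gene groups, each point a gene, with a bar at the median of each group. Sarcomere genes have the highest median, 8.17, and mitosis genes the lowest, -7.52, while the 46 oxidative phosphorylation genes form a narrow band between 1.12 and 3.08.

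Protein breakdown differed between the muscle-specific ligases and the proteasome. Of 14 atrophy and FoxO genes, 10 were higher and none lower (median 3.62). Trim63, the ligase MuRF1, was at 14.66, 14.64 and 14.78 in soleus, against 6.51, 6.67 and 6.69 in myoblasts, 268-fold higher, and Fbxo32, atrogin-1, was 16.2-fold higher. Klf15, a glucocorticoid-responsive factor of muscle metabolism, was at least 1144-fold higher. Mstn, myostatin, the brake on muscle growth, was at least 28.1-fold higher, but with normexp its difference was 1.31 and not called. Of 31 proteasome subunits, 30 were not called, and Psmd14, a deubiquitinase of the lid, was lower at -1.20; with spike-in scaling 28 of the 31 were lower. Of 21 autophagy genes, 10 were higher and 1 lower, but with spike-in scaling 2 were higher and 10 lower, and the median of 0.46 became -0.98. Bnip3, a receptor for the removal of mitochondria, was 4.64 higher under the main scaling and 3.20 under the other. Among 23 chaperones, 8 were higher and 7 lower (7 and 14 with spike-in scaling). The top members were small heat shock proteins of muscle: Hspb7 at 11.13, Hspb3 at 8.53 and Hspb6 at 6.79.

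Regulators outside the muscle programme were called in both directions. Over all genes, 30.5% were higher and 25.6% lower. A list near those shares, such as the chaperones above, is not set apart by its counts. Of 18 circadian clock genes, 11 were higher and 1 was lower (median 2.35; 9 and 4 with spike-in scaling). Dbp, a clock output factor, was 4.15 higher. The time of day of collection is not given in the labels used here. Of 26 Hox genes, which set position along the body axis, 11 were higher and 3 lower, but with spike-in scaling 6 were higher and 9 lower, and their median of 0.73 became -0.71. Hoxd8 was at least 72.0-fold higher and Hoxb6 was 5.36 higher. Normexp called 1 Hox gene higher and 1 lower, and with it the difference of Hoxd8 was 1.86 and not called. Of 16 oncofetal and chromatin genes, 11 were lower and 2 higher (13 and 1 with spike-in scaling). Hmga2, a chromatin protein of embryonic and tumour cells, was at 5.14, 5.31 and 4.92 in soleus, against 13.04, 13.43 and 13.23 in myoblasts, 276-fold lower. Of 22 antioxidant genes 6 were higher and 10 lower (2 and 12 with spike-in scaling), and their median of 0.21 had no settled direction: it was -0.32 with quantile normalization, -1.23 with spike-in scaling and -0.38 in the authors' deposited values. Hmox1, heme oxygenase, was lower at -3.41 and Gpx3, a secreted glutathione peroxidase, was higher at 3.66. Of 16 immediate early and dissociation stress genes, 4 were higher and 7 lower (2 and 11 with spike-in scaling). Hspa1a, an inducible heat shock protein, was 3.55 higher and Junb, an early response factor, was lower at -2.39.

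Markers of other cell types moved with the tissue. All 14 endothelial markers were higher in soleus, their summed unlogged level running from 78726 to 82246 in soleus and from 1214 to 1437 in myoblasts, where 4 of them, Cdh5 and Pecam1 included, were above background on no array. Of 14 macrophage and leukocyte markers, 12 were higher and 1, Cd14, was lower, with sums of 16038 to 16856 in soleus and 695 to 883 in myoblasts, and 8, Ptprc and Adgre1 included, were above background on no myoblast array. Of 7 adipocyte markers, 6 were higher, with sums of 124400 to 136935 in soleus and 1958 to 2131 in myoblasts, and Adipoq, Cfd and Plin1 were above background on no myoblast array. All 8 Schwann cell markers were higher, with sums of 36259 to 38303 in soleus and 12028 to 13174 in myoblasts. Each of the 8 was above background on at least 1 myoblast array, so they are not absent from the cell line. All 3 erythroid markers were higher, with sums of 41537 to 53700 in soleus and 96.0 to 161 in myoblasts. Of 13 fibroblast and tendon markers, 9 were higher and 2, Scx and Ly6a, were lower, with sums of 121429 to 137241 in soleus and 93411 to 97253 in myoblasts. Of 10 smooth muscle and pericyte markers, 7 were higher and 2, Cnn1 and Tagln, were lower, with sums of 353818 to 370348 in soleus and 96429 to 99111 in myoblasts. That list includes Des, which was also counted among the scaffold genes, so its count and sums hold a gene of muscle fibres. Of 5 lymphocyte and mast cell markers 3 were higher, with sums of 326 to 485 in soleus and 134 to 212 in myoblasts. With spike-in scaling the calls higher were 14 endothelial, 11 leukocyte, 5 adipocyte, 5 Schwann cell, 3 erythroid, 9 fibroblast, 5 smooth muscle and 2 lymphocyte and mast cell markers. With normexp they were 9 endothelial, 1 leukocyte, 2 adipocyte and 2 Schwann cell markers. Ly6a, at -1.004, lost its call without replicate 1 (-0.99) and without replicate 3 (-0.87). The part of these cells in the differences of the other groups, among them collagens, antigen presentation (12 of 17 higher, 9 with spike-in scaling, median 2.51) and fat handling, was not tested.

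The sex-linked genes separated the groups completely. Xist, the RNA that silences one X chromosome in female cells, was not above background in soleus (2.76, 1.86 and 1.95), against 13.63, 13.74 and 13.16 in myoblasts, and was at least 619-fold lower. The Y-linked genes Ddx3y and Eif2s3y were at least 577-fold and at least 655-fold higher, with no myoblast array above background. Soleus came from male mice, and the labels used here give no sex for C2C12.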

How the data were processed

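RNA of each sample was hybridized to a one-colour Agilent mouse array. Per the file headers, the deposited scanner files hold the intensity of each spot after background subtraction and detrending by Agilent Feature Extraction 10.5.1.1, with no normalization between arrays, and probe coordinates are those of the design build, mm8. The authors' deposited table holds an intensity already normalized between arrays in a way not stated in words, and it served as an alternative only.

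Here, 43379 spots per array were not controls, and spots with an outlier flag (71 to 100 on the soleus arrays, 68 to 127 on the myoblast arrays) were left out; none was saturated. Spots of a probe (41174 probes) were averaged, taken to log2 from the deposited intensity, and scaled by each array's 75th percentile, with 9.65 added back. A probe was kept if well above background on all 3 arrays of either group (27714 probes), and its kept probe with the highest mean stood for a gene, which left 18263 genes. Of 3473 called genes with several probes, 3041 had the same sign in all of them. Among called genes 25 lacked a value on some array, which limma fitted without it. Gene names came from the RefSeq table by accession (24375 probes), symbol (6301), synonym (2426) or another accession (13), and 8059 kept the name in the file; the table of names follows another build and gave names and promoters only. Of the 18263 genes, 11700 had a promoter there.

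Differences were tested two-sided with limma 3.58.1 in R 4.3.3 (data.table package, version 1.17.8), lmFit and eBayes, with the slide as a block, p-values adjusted by Benjamini-Hochberg over all genes. Each replicate number is a slide shared by the groups, and same-numbered arrays deviated together from their group means (r of 0.456, 0.296 and 0.373), while other pairs of arrays gave -0.384 to 0.107. The fit for soleus and EDL used all 12 arrays. The precision is limited by the number of arrays. An "at least" fold sets the bright group's mean against, per array, the higher of the dim probe's signal and the lowest signal of any probe well above background. Such a fold is a bound under the main background correction only. With normexp some of these genes differed by less. The scripts were tested on simulated data. Alternatives were quantile normalization, scaling on the spike-ins, normexp on the mean and local background signals (offset 50), the same with bright local backgrounds replaced by the array's median (chosen after seeing the data), no filter on dim probes, the mean over probes, the authors' values, no block, all 12 arrays and leaving out each replicate.

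The 50 gene lists (960 entries, 31 of them not tested) and the comparison itself were chosen with earlier results of these data known, so list counts are descriptions. The rule for named genes took the 12 highest and 12 lowest called genes above background on all 6 arrays without overlap; the 10 largest lower bounds in each direction; up to 4 called members per list with the largest difference; every core dNTP enzyme; the sister pairs, 29 of which are given; and the fibre genes. Among others, Mb, Klhl41, Ttn, Mybph, Itga7, Chrna1, Myf5, Myog, Pax7, Ankrd1, Myh3, Cs, Suclg2, Atp5b, Nrf1, Tfam, Cdk1, Ndc80, Rbl2, Mycn, Npm1, Adsl, Fbxo32, Fkbp1a, Tfb2m, Twnk and the marker genes that were lower lie outside that rule and were named after their values were seen. The promoters were chosen for holding the motifs shown. A few genes under this rule are not reported here.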

Additional observations from a re-analysis of the deposited data

Results flagged for a closer look

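The differences below were picked out because the soleus and EDL muscles differ in their distance from the same myoblast arrays, tested directly as soleus minus EDL in the 12-array limma fit, where 5.44% of all genes were higher and 4.63% lower. Among slow fibre genes the difference was 3.32 for Myh7, 5.36 for Myl2, 5.76 for Tnni1, 5.21 for Tnnt1, 6.17 for Tnnc1 and 1.89 for Tpm3. The calcium handling genes of slow fibres gave 6.08 for Atp2a2, the slow calcium pump, 3.49 for Casq2, 1.80 for Pln and 4.73 for Sln, both regulators of that pump, and the Z-disc gene Myoz2 gave 4.13. Tpm3 is the one gene here that was higher than in EDL and lower than in myoblasts. Among fast fibre genes, Myh2 was higher by 1.26. Those lower in soleus than in EDL were Myh4 at -1.15, Mylpf at -1.64, Tpm1 at -1.04, Atp2a1 at -1.74, Casq1 at -2.17, Pvalb at -4.77, Mybpc2 at -3.41, Actn3 at -4.75 and Mylk2 at -1.99. All 9 were nevertheless higher in soleus than in myoblasts.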

How the results depend on the processing

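Against 5562 higher and 4681 lower, quantile normalization gave 4840 and 5480, the authors' values 4443 and 5432, the mean over probes 5532 and 4615, normexp with bright local backgrounds replaced 5841 and 3545, and all 12 arrays 5573 and 4694. Without the replicate block, on which the pairing of the arrays by slide rests, the counts were 5473 and 4656, and leaving it out changed no call among 325 named genes and moved none of the 100 list counts by over 1.5 times. Spike-in scaling gave 2854 and 10396, normexp 1180 and 1409 (82 of the 325 named genes lost their call, among them Rrm2b, Mybph, Tpm3, Chrne, Myf5 and Ndc80, 43 list counts changed by over 1.5 times, antigen presentation genes called higher were 0 and Hox genes 1), and no filter on dim probes 11594 and 4694 of 27596 genes. Leaving out each replicate gave 5503 to 5701 higher and 4587 to 4667 lower; without replicate 1, which leaves the slides scanned on 1 day, 5701 and 4667. Spike-in scaling turned the medians of the lists of neuromuscular junction (-0.72), myogenic (-0.63), biogenesis (-0.17), mitochondrial ribosomal (-0.87), autophagy (-0.98), Hox (-0.71) and antioxidant genes (-1.23), and turned Adsl (-0.40), Atp5b (-0.32), Cav1 (-0.0297), Dguok (-0.45), Dtna (-0.28), Gapdh (-0.92), Ldha (-1.21), Mrps9 (-0.14), Myh3 (-1.25), Myl6b (-0.57), Nt5m (-0.89), Pax7 (-0.17), Rrm2b (-0.16), Tfam (-0.94), Tfb2m (-0.23), Tmod3 (-1.30), Tpi1 (-0.79) and Twnk (-0.12). The antioxidant median was -0.32 with quantile normalization, -0.0911 with normexp, -0.36 with the mean over probes and -0.38 with the authors' values. Ldha was -0.62 and -0.73 with quantile normalization and the authors' values, which also gave -0.14 for Atp5b, -0.26 for Gapdh and -0.0381 for Tpi1, Tmod3 was -0.0570 with normexp, and with the mean over probes Ckb was 0.24, Samhd1 0.62, Tpm3 2.86 and Tmod3 -0.004. Between soleus and EDL, Mybpc1 turned to -0.0415 (spike-in scaling) and -0.28 (normexp), Myl6b turned to 0.19 (normexp), and Tnnc2 ranged from -0.0679 to 0.0142 without 1 replicate. There the fast genes lower were 6 with normexp, 7 with quantile normalization, 10 with spike-in scaling and 7 to 10 without 1 replicate, and 0 were higher with normexp. Without 1 replicate, 2 to 3 named genes lost their call. Some spike-in counts were not given above. Genes called higher were then 12 slow fibre, 14 fast fibre, 26 scaffold, 13 energy and oxygen, 25 fat oxidation and 8 atrophy genes. Genes called lower were 28 mitosis, 26 replication, 19 G1 and S phase, 29 ribosome biogenesis and 22 tRNA charging and amino acid genes. So were 16 purine and pyrimidine, 17 cholesterol and 31 non-muscle actin genes. The cause of these changes was not tested. Probes near background limit the small values: their levels of about 1 to 4 have no order.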

Other observations

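Beyond the muscle and cell cycle genes, the extremes of the comparison held secreted and signalling genes. Igfbp2, which binds insulin-like growth factors, had the lowest difference of genes with a RefSeq symbol above background on all 6 arrays. It stood at 7.61, 7.63 and 7.52 in soleus, against 15.94, 16.23 and 16.16 in myoblasts, a difference of -8.52. The chemokines Cxcl1 and Ccl2, which draw in neutrophils and monocytes, differed by -8.17 and -7.83, and Alox5, the first enzyme of leukotriene synthesis, by -7.87. All 3 were lower in soleus although most macrophage and leukocyte markers were higher there. Prl2c5, a proliferin, and Nefl, the neurofilament light chain, were not above background in soleus and were at least 507-fold and at least 492-fold lower. Steap1, a membrane metalloreductase, was at least 497-fold lower.

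On the side of the muscle, Ppp1r1a, an inhibitor of protein phosphatase 1, differed by 11.97, Coq8a, needed for coenzyme Q synthesis, by 11.36 and Sparcl1, a matrix glycoprotein, by 11.34. Genes not above background on any myoblast array included Acss1, the mitochondrial enzyme that activates acetate, at least 5226-fold higher, Smtnl1, a smoothelin-like protein of oxidative fibres, at least 3775-fold, and Thbs4, a thrombospondin of tendon and muscle matrix, at least 2178-fold. Asb11, Lrrc2, Mlip and Rcsd1 were at least 2813-fold, 2756-fold, 2406-fold and 2034-fold higher. Thbs4 and Sparcl1 are also made by cells of vessels and connective tissue, whose markers were higher in soleus, and their part was not tested.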
